A study of Mus musculus with 58 samples.

Results

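In wild-type mice, an antisense oligonucleotide (ASO) against Tfe3 was compared with a control ASO labelled ntc, with microglial polyA RNA as the readout. The comparison used 8 of the 58 libraries of the series, 4 per treatment, chosen by their labels from a table of 20 wild-type ASO libraries. The other 12 libraries of that table came from mice given PBS, an ASO against Mitf or an ASO against Tfeb, 4 each. An ASO is a short synthetic nucleic acid that pairs with a transcript and lowers its level. All 20 libraries came from C57BL/6 mice with the genotype WT, injected once into the cerebral ventricles and harvested on day 14. Cells were sorted from forebrain as CD11b+, CD45low and CX3CR1+, and RNA was isolated with 1 of 2 kits, without a statement of which kit served which library. Each treatment had 1 library in each of 4 sets that the labels call grp, and the set number was used to pair Tfe3 ASO and ntc libraries. What a set is, the number of animals per library, their age and their sex are not stated in the sources used here, so a p-value measures the spread between libraries, which may be technical. Replicates 1 to 4 are written T1 to T4 for the Tfe3 ASO and N1 to N4 for ntc. SgshKO mice, which lack an enzyme of heparan sulfate breakdown, supplied a separate set of 8 ntc libraries and 8 libraries from mice given the Mitf and Tfe3 ASOs together.

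Tfe3 is a basic helix-loop-helix leucine zipper transcription factor of the MiT/TFE family, which also holds Mitf, Tfeb and Tfec. The factors are held in the cytoplasm when mTORC1, acting with folliculin and the Rag GTPases at the lysosome, phosphorylates them, and they enter the nucleus when nutrients are short or lysosomes are damaged. They bind E-box elements near genes of lysosomal enzymes, the proton pump and autophagy. In microglia, the phagocytes of the brain, lysosomal genes are abundant and form part of the disease-associated state.

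Libraries held 16554404 to 30378870 counts in the 8 Tfe3 ASO and ntc samples. The microglial genes P2ry12, Tmem119 and Sall1 were abundant in both groups, for example P2ry12 at 7224 to 8610.1 CPM (counts scaled to the normalized size of each library) with ntc and 6591 to 8249 CPM with the Tfe3 ASO, and none of these 3 was called. Of the markers of other cells, 0 of 14 neuronal, 2 of 12 astrocyte, 5 of 14 oligodendrocyte, 3 of 14 endothelial or mural, 2 of 19 lymphocyte, 3 of 19 monocyte or neutrophil and 4 of 15 border macrophage genes were measured, and edgeR called none. Of these 19 genes 5 had an unadjusted p under 0.05, beside 16.6% of all genes, and DESeq2 called 1, an oligodendrocyte gene, higher. Their summed levels overlapped between the groups in every list with a measured member, for example 1408 to 1665 CPM with ntc and 1461 to 1608 CPM with the Tfe3 ASO for the oligodendrocyte list. Differences between the 2 treatments also varied with transcript length, as described with the ribosomal genes.

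Tfe3 itself (chromosome X, 7762560 to 7775202 in GRCm38) was lowered to 19.2% of its control level. Its level was 202, 192, 196 and 202 CPM in N1 to N4 and 40.03, 36.8, 34.9 and 40.5 CPM in T1 to T4. The groups did not overlap, and the 4 Tfe3 ASO libraries lay within 6 CPM of each other. The log2 fold change was -2.38 ± 0.055 SE, adjusted p = 1.36e-15 by edgeR's quasi-likelihood test with Benjamini-Hochberg adjustment over 10277 genes, the test behind every adjusted p here. PBS libraries held 219, 185, 185 and 209 CPM, close to ntc. The related factors Tfeb and Mitf were not called. Tfeb was at 54.2, 58.1, 52.6 and 54.7 CPM with ntc and 56.2, 53.96, 44.8 and 49.5 CPM with the Tfe3 ASO (-0.11 ± 0.067 SE, adjusted p = 0.445). Mitf was at 34.5, 42.8, 47.3 and 50.4 CPM and 41.9, 44.2, 46.7 and 45.8 CPM (0.04 ± 0.087 SE, adjusted p = 0.871). In both cases the groups overlapped, and the ASOs against these 2 factors lowered their own targets to 4.59 to 6.91 CPM and 1.01 to 2.15 CPM. Tfec was not measured in this table.

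**Figure D1:**
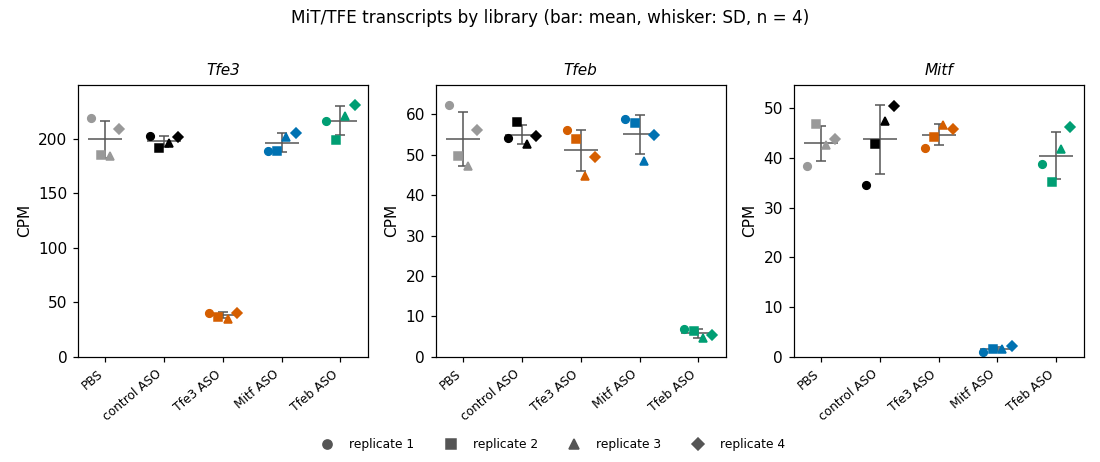
CPM of Tfe3, Tfeb and Mitf in each wild-type library under 5 treatments, 4 libraries each, with the mean as a bar and the SD as a whisker. Tfe3 lies at 34.9 to 40.5 CPM only with the Tfe3 ASO, while Tfeb lies there at 44.8 to 56.2 CPM and Mitf at 41.9 to 46.7 CPM, overlapping the PBS and control ASO libraries.

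Beyond the target, the response was small. A total of 222 of 10277 genes (2.16%) had an adjusted p under 0.05. With the Tfe3 ASO 150 of them rose (1.46% of all) and 72 fell (0.701%). These are levels in bulk RNA, in which fewer cells of a state and less RNA per cell cannot be told apart. Only 7 called genes rose and 2 fell by 2-fold or more, and 193 of the 222 changed by less than 1.5-fold. The median log2 fold change was -0.014 over all genes. In 221 of the 222 the 4 paired differences had the same sign, and in 134 the 2 groups of 4 did not overlap, against 481 of all 10277 genes (4.68%). The calls came from a fit that pairs these same libraries by set, so both counts are no independent support. The share of all genes with the same sign in 4 pairs is not given here. The number of calls depended on the design. Without the set number as a block 29 genes were called, 25 higher and 4 lower, so 86.2% of calls were higher against 67.6% in the paired fit. Of the genes named in these results, those still called without the block were Tfe3, Gpr162, Itgae, Ly9, Rftn1, Pear1, Ctsb, Ctsd, Gm2a, Cd9, Fth1, B2m, Postn, Pkm, Gapdh, Itgb2 and Fcer1g. With only the 8 libraries of the comparison in the fit, calls ended for Impact, Steap3, Nlgn2, Ccnb2-ps, Ctnnd2, Slc36a1, Mertk, Sdha, C1qc, Cd68, Becn1, Calr, H2-Oa, Rpsa, Creb3l1, Bub1b, Uap1l1, Rnf157, Galc and Postn. On the signal that the authors corrected for batch, calls ended for Nlgn2, Ccnb2-ps, Ctnnd2, Rora, Becn1, Bub1b, Renbp, Uap1l1, Rnf157 and Ubn1, Ankrd28 was at -1.21 and Ctnnd2 at -0.32. With a trend over transcript length removed they ended for Nlgn2, Rora, Slc36a1, Olfml3, Cd68, H2-Oa, B2m, Rps7, Rps4x, Ccl3 and Galc, and with cyclic loess for Itgam, C1qc, Fcrls, Ctss, Cd68, Calr, Rpsa, Rps7, Galc and Man2b1, and Cx3cr1 was at -0.28 and Cst3 at 0.20. Leaving out 1 library gave 79 calls without T3, 92 without N1, 103 without T4, 110 without N2, 117 without N4, 124 without N3, 129 without T2 and 140 without T1.

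Among called genes with a mean of at least 50 counts, the 12 largest increases were led by Gpr162, an orphan receptor gene (chromosome 6, 124858444 to 124863983). It was at 8.89, 4.56, 8.01 and 4.60 CPM in N1 to N4 and at 31.9, 21.3, 19.5 and 10.8 CPM in T1 to T4. Every Tfe3 ASO library was above every ntc library, a rise of 1.67 ± 0.20 SE, adjusted p = 0.000129. Lox, which crosslinks collagen, went from 4.96, 2.19, 5.38 and 1.77 CPM to 13.05, 7.86, 7.56 and 6.89 CPM (1.34 ± 0.31 SE, adjusted p = 0.0281), with T1 the highest. Cst7, which encodes the cathepsin inhibitor cystatin F, went from 7.25, 9.22, 24.1 and 9.03 CPM to 26.2, 19.97, 34.4 and 27.9 CPM (1.17 ± 0.25 SE, adjusted p = 0.0185). N3 of Cst7 lay among the Tfe3 ASO values, so the groups overlapped. Chst2, a carbohydrate sulfotransferase, rose from 6.22, 6.84, 10.4 and 5.06 CPM to 23.2, 17.8, 13.9 and 12.8 CPM (1.20 ± 0.22 SE, adjusted p = 0.00658) with no overlap. Ly9, a SLAM-family surface receptor, rose from 35.9, 25.6, 40.2 and 26.3 CPM to 71.5, 57.3, 60.9 and 45.8 CPM (0.89 ± 0.11 SE, adjusted p = 0.000267), again with no overlap. Npnt, the integrin ligand nephronectin, rose from 45.1 to 93.3 CPM to 102 to 146 CPM (log2 fold change 0.97). Kcnj10, a potassium channel, went from 14.8 to 22.8 CPM to 31.3 to 39.6 CPM (0.78), and Itgae, the integrin alpha E chain, from 1.76 to 2.40 CPM to 3.82 to 6.28 CPM (1.15). Wscd1 (0.96), Creb3l1 (0.83), Rftn1 (0.70) and the olfactory receptor gene Olfr110 (1.31) complete the group, and the next gene outside it was Susd1 at 0.65. Reads of Olfr110 may be shared with near-identical family members, so its level is uncertain. The calls of Gpr162, Chst2, Ly9, Npnt, Kcnj10, Itgae, Wscd1 and Rftn1 held without any single library. Leaving out 1 library ended other calls, here with the libraries concerned and the adjusted p without each: Lox (any but N3, 0.0503 to 0.105), Cst7 (T3, N1, N2 and N4, 0.0565 to 0.0828), Creb3l1 (any but T3, 0.0552 to 0.128) and Olfr110 (T2, T4, N2 and N4, 0.0516 to 0.0728).

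After Tfe3, the 11 largest decreases ran from -1.50 for Fosb to -0.51 for Ddx6. Steap3, a ferrireductase of endosomes (chromosome 1, 120190757 to 120272705), was at 6.60, 4.51, 5.74 and 5.48 CPM in N1 to N4 and 3.57, 3.31, 3.60 and 2.89 CPM in T1 to T4. The groups did not overlap and the fall was -0.73 ± 0.14 SE, adjusted p = 0.00737. Pear1, a surface receptor with EGF-like repeats, fell from 22.7, 21.4, 23.7 and 21.2 CPM to 15.6, 15.999, 11.4 and 14.99 CPM (-0.62 ± 0.11 SE, adjusted p = 0.00689). Ddx6, an RNA helicase of processing bodies, fell from 419, 394, 442 and 447 CPM to 319, 263, 264 and 357 CPM (-0.51 ± 0.088 SE, adjusted p = 0.00511). Neither gene overlapped between groups. Ankrd28 (-0.77), a regulatory subunit of protein phosphatase 6, and Ctnnd2 (-0.64), delta-catenin, also fell. So did Nlgn2 (-0.69), a neuroligin, and the pseudogene Ccnb2-ps (-0.68), whose reads may come from its parent gene. Impact, an inhibitor of the kinase Gcn2, was at 40.96, 36.01, 29.5 and 61.9 CPM and 31.8, 27.97, 19.1 and 22.7 CPM (-0.73 ± 0.16 SE, adjusted p = 0.0204), and without N4, its highest library, the change was -0.45. Fosb, an immediate-early AP-1 gene, was at 22.6, 5.27, 3.23 and 4.17 CPM and 8.55, 1.09, 0.360 and 3.07 CPM (-1.50 ± 0.35 SE, adjusted p = 0.032). N1 and T1 were the highest libraries of their groups, and T1 lay above N2 to N4, so the groups overlapped. Over all genes 0.701% were called lower, and among clock genes 2 of 15 measured were called, both lower. These were Nr1d1, the repressor REV-ERB alpha (28.7, 15.6, 30.6 and 28.1 CPM against 15.3, 15.5, 16.5 and 14.8 CPM, -0.71 ± 0.16 SE, adjusted p = 0.0262), and Rora (12.1 to 19.3 CPM against 8.42 to 10.998 CPM, -0.57 ± 0.12 SE, adjusted p = 0.0179). Lcor, at -0.50, lay just outside this group. The calls of Steap3, Pear1 and Ddx6 held without any single library, and calls were lost without 1 library, with the adjusted p then, for Ankrd28 (T2, T3, N1 and N3, 0.0665 to 0.102), Ctnnd2 (T1, T2, N2 and N3, 0.0751 to 0.0934), Nlgn2 (any but T1, 0.088 to 0.192), Ccnb2-ps (any but T1 and N3, 0.054 to 0.0792), Impact (T3 and T4, 0.0839 to 0.0906), Fosb (any but T4 and N4, 0.0612 to 0.137), Nr1d1 (any but T2 and N2, 0.0701 to 0.125) and Rora (T2, T3, T4 and N3, 0.0516 to 0.0701).

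**Figure D2:**
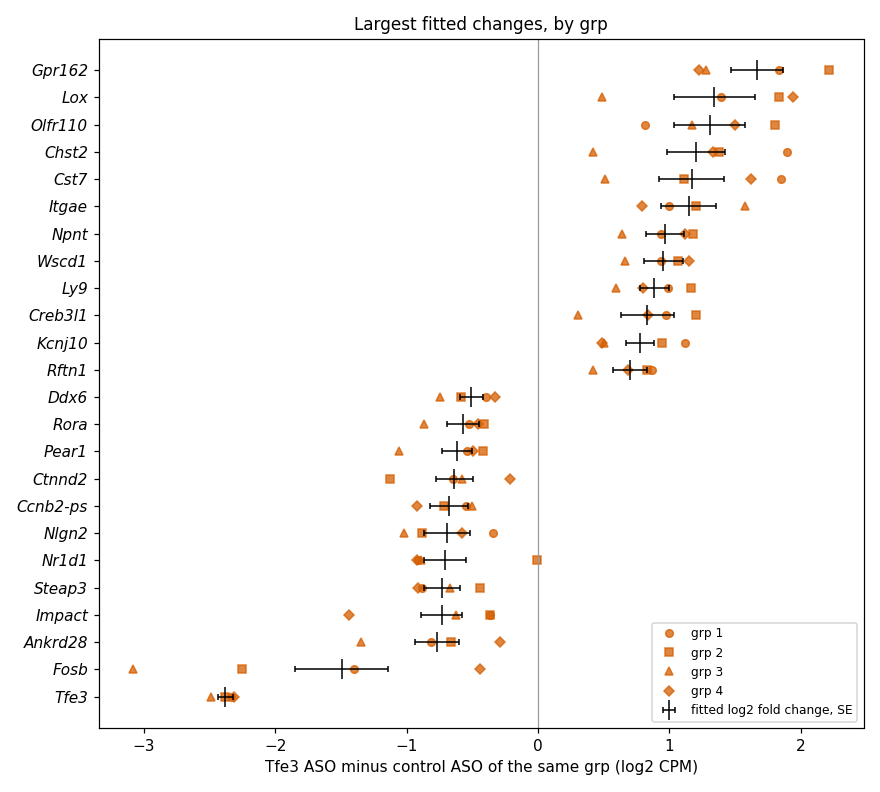
Fitted log2 fold change with its SE for the 12 largest decreases and 12 largest increases among called genes with a mean of at least 50 counts. Beside it stands the log2 CPM difference of the Tfe3 ASO and control ASO libraries in each of the 4 sets (grp). Tfe3 sits at -2.38 in a narrow band, and the increases reach 1.67.

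The lysosomal genes, the best-known targets of this family, were called in both directions. Of 36 measured lysosomal hydrolases and cofactors, 4 fell and 2 rose, with a median of -0.012 against -0.014 for all genes. Over all genes, 0.701% were called lower and 1.46% higher. Dnase2a, the acid nuclease that degrades engulfed DNA (chromosome 8, 84908560 to 84922915), was at 179, 147, 167 and 134 CPM with ntc and 144, 118, 111 and 108 CPM with the Tfe3 ASO. It was lower in each set, although T1 lay among the ntc values (-0.38 ± 0.069 SE, adjusted p = 0.00632). Neu1, the lysosomal sialidase, fell from 66.9, 62.7, 56.6 and 56.6 CPM to 51.05, 53.9, 46.9 and 44.7 CPM (-0.31 ± 0.066 SE, adjusted p = 0.0195). Galc, the galactosylceramidase, fell from 71.6 to 80.02 CPM to 56.3 to 66.5 CPM (-0.29, adjusted p = 0.0405). Neu1 and Galc showed no overlap between groups. The hydrolase genes that rose were Gm2a and Man2b1. Gm2a, the activator of ganglioside GM2 breakdown, went from 337, 345, 376 and 353 CPM to 436, 437, 455 and 457 CPM (0.34 ± 0.039 SE, adjusted p = 0.000108), and Man2b1, an alpha-mannosidase, from 1547 to 1918 CPM to 1849.5 to 2064 CPM (0.22, adjusted p = 0.00629). The other 30 measured members were not called. The calls of Dnase2a, Gm2a and Man2b1 held without any single library. Losing 1 library ended the call, with the adjusted p then, for Neu1 (any but T2 and N3, 0.0501 to 0.101) and Galc (any, 0.0728 to 0.184). Without the block by set, 1 of the 36 rose and 0 fell.

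Of 11 measured cathepsins, the lysosomal proteases, 3 rose and none fell, beside 1.46% of all genes higher and 0.701% lower. Against the same ntc libraries, 7 of the 11 rose with the Mitf ASO, beside 5.77% of all genes. With the Tfeb ASO 3 rose, beside 0.564% of all genes. Ctsd, an aspartic protease (chromosome 7, 142375911 to 142388038), rose from 15449, 14639, 16052 and 14778 CPM to 19842, 19375, 20843 and 19172 CPM (0.38 ± 0.042 SE, adjusted p = 7.29e-05). Ctsb, a cysteine protease, rose from 3482, 3172, 3770.2 and 3151 CPM to 4647, 4379, 4493 and 4328 CPM (0.40 ± 0.044 SE, adjusted p = 7.29e-05). Ctss, the cathepsin of antigen processing, rose from 5518 to 6355 CPM to 6719 to 7416 CPM (0.21 ± 0.039 SE, adjusted p = 0.00658). In all 3 every Tfe3 ASO library was above every ntc library, and the calls held without any single library. The remaining 8 were not called, and the list median was 0.069.

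Among 31 lysosomal membrane proteins and channels, 2 fell and 1 rose, beside 0.701% and 1.46% of all genes. Clcn7, the chloride-proton exchanger of the lysosome (chromosome 17, 25133391 to 25162104), fell from 139, 124, 126 and 111 CPM to 110.4, 108, 96.4 and 89.3 CPM (-0.31 ± 0.057 SE, adjusted p = 0.00743), with no overlap, and held its call without any single library. Slc36a1, a lysosomal amino acid transporter, was at 123, 144, 187 and 183 CPM and 109, 131, 142 and 152 CPM, lower in each set although the groups overlapped (-0.24 ± 0.058 SE, adjusted p = 0.0354). Cd68, a heavily glycosylated membrane protein of macrophage lysosomes, was the one that rose (715 to 922 CPM to 876 to 956 CPM, 0.22 ± 0.051 SE, adjusted p = 0.0284). Mcoln1, the lysosomal calcium channel, was at 31.5, 30.6, 31.9 and 31.03 CPM and 27.9, 22.96, 27.2 and 26.4 CPM (-0.26, adjusted p = 0.0529), and passed by DESeq2 (0.0429), with PBS library 4 in set 3 (0.0458) and with the length trend removed (0.0427). Without the block, and in each fit without 1 library, Mcoln1 was not called, and its highest adjusted p over the alternatives was 0.351. Without 1 library, calls were lost, with the adjusted p then, for Slc36a1 (any, 0.0607 to 0.155) and Cd68 (any but N3, 0.0653 to 0.11).

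Neither edgeR nor DESeq2 called any of 17 subunits of the V-ATPase, the lysosomal proton pump (median -0.046). Of the 17, 3 had an unadjusted p under 0.05, beside 1711 of all 10277 genes (16.6%). The smallest p in that list belonged to Atp6v1c1 (0.18, adjusted p = 0.0928). Of 25 folliculin, Rag and mTORC1 regulators edgeR called none, 6 had an unadjusted p under 0.05 and DESeq2 called 1 higher and 1 lower (median -0.07). Flcn itself was at 138, 150.3, 161 and 145 CPM and 111, 135, 116 and 118 CPM, without overlap (-0.31 ± 0.083 SE, adjusted p = 0.0611). It passed by DESeq2 (0.0183), with only the 8 libraries in the fit (0.0336) and on the batch-corrected signal (0.0351). Without the block, and in each fit without 1 library, Flcn was not called. Its highest adjusted p over the alternatives was 0.393. Castor1, an arginine sensor, had the smallest p of the list and a positive difference (0.43, adjusted p = 0.0611), with 0.0225 by DESeq2, 0.033 with cyclic loess and 0.0342 on the signal. It too was not called without the block or in the fits without 1 library, and its highest adjusted p was 0.751. Of 38 autophagy genes only Becn1, a core of the lipid kinase complex that starts autophagosomes, was called (29.1 to 31.8 CPM to 33.3 to 37.5 CPM, 0.25 ± 0.059 SE, adjusted p = 0.0339). It lost that call without any one of the 8 libraries (adjusted p of 0.0503 to 0.122). The list median was -0.015, and 2.16% of all genes were called in either direction.

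**Figure D3:**
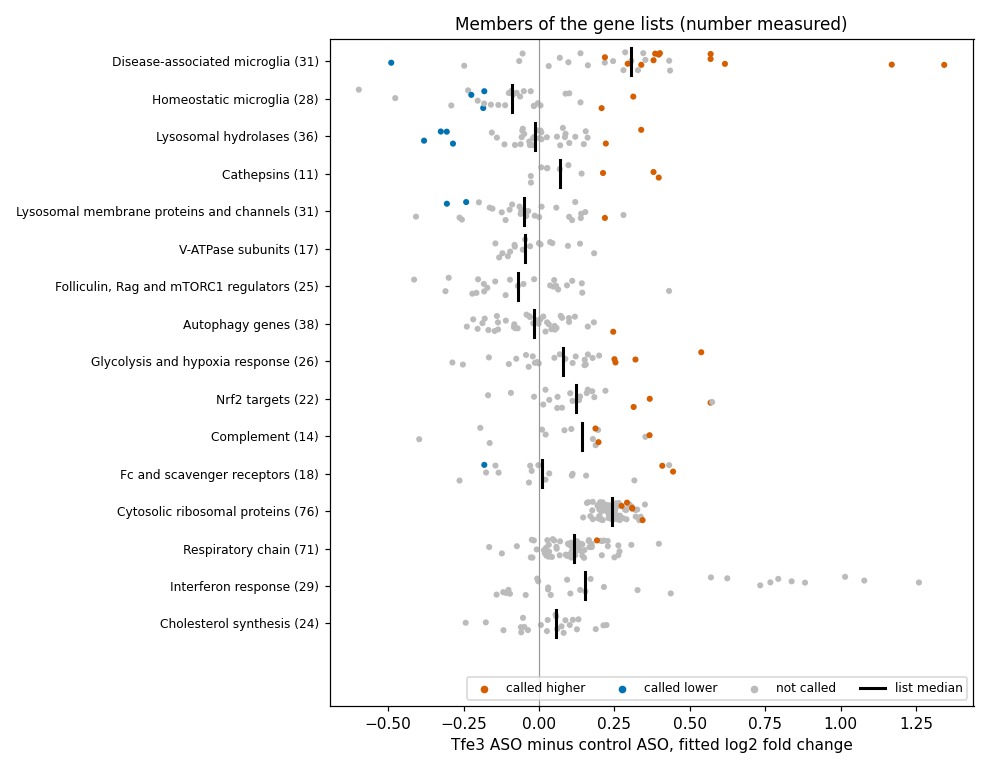
Fitted log2 fold change of each measured member of 16 gene lists, one point per gene, with called genes coloured and the list median as a black bar. Called hydrolases lie on both sides of 0, called cathepsins lie above 0, and the disease-associated list is centred at 0.31.

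Promoters were read to show the letters that this family is known to bind at 2 of the lysosomal genes that fell. The E-box CACGTG was searched on both strands in the 250 bases before each gene start, from RefSeq on GRCm38.p6, which covered 8120 of the tested genes. It was present in 8 of 56 genes called lower (14.3%), 12 of 124 called higher (9.68%) and 834 of all 8120 (10.3%). The longer form CACGTGAC, which contains the first motif, was present in 5 of the 56 (8.93%), 6 of the 124 (4.84%) and 340 of all 8120 (4.19%). The form TCATGTGA was present in 1 of 56, 1 of 124 and 53 of 8120 (0.653%). Windows of Clcn7 and Slc36a1, both with the longer form on one of their strands, are printed 5′ to 3′ on the gene's strand with the E-box in capitals. Ubn1, a chromatin protein gene outside the gene lists and chosen after its values were seen, is added because it holds the element at 2 places.
Clcn7, chr17:25133349-25133390, plus strand: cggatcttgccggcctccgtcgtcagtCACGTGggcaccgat
Slc36a1, chr11:55204282-55204339, plus strand: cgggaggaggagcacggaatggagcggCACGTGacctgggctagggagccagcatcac
Ubn1, chr16:5049898-5049957, plus strand: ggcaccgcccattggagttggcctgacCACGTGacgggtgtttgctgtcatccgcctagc
Ubn1, chr16:5049981-5050040, plus strand: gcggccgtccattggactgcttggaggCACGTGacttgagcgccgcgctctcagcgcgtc
The E-box began 15 bases before the start of Clcn7, 31 before that of Slc36a1, and 132 and 49 before that of Ubn1 (-0.29 ± 0.059 SE, adjusted p = 0.0156). Without 1 library the Ubn1 call was lost, with the adjusted p then, as follows: Ubn1 (T3, T4 and N4, 0.052 to 0.0658). A match is a description of letters, and binding was not measured in these libraries.

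Set directly against the Mitf ASO, lysosomal genes were lower with the Tfe3 ASO in part of each of 4 classes. With the Mitf ASO, 19 of 36 hydrolases, 7 of 11 cathepsins, 10 of 31 membrane genes and 8 of 17 V-ATPase subunits rose against ntc and none fell, and the Tfe3 ASO values against ntc were those given above. Of 10277 genes, 386 differed (3.76%), 116 higher (1.13%) and 270 lower (2.63%) with the Tfe3 ASO. The Mitf ASO itself changed 1128 genes against ntc (11.0%), 593 higher (5.77%) and 535 lower (5.21%). Hydrolases were lower in 16 of 36 and higher in none, cathepsins lower in 6 of 11, lysosomal membrane genes lower in 11 of 31 and V-ATPase subunits lower in 7 of 17, with medians of -0.17, -0.15, -0.15 and -0.26 against 0.0024 for all genes. Dnase2a was at 232, 219.7, 225 and 188 CPM with the Mitf ASO, above every ntc, PBS and Tfe3 ASO library, and differed from the Tfe3 ASO by -0.85 ± 0.069 SE, adjusted p = 4.54e-07. Galc was at 111, 95.97, 101 and 105 CPM with the Mitf ASO (-0.72 ± 0.07 SE, adjusted p = 3.85e-06). Neu1 (-0.57) and Clcn7 (-0.60) differed in the same direction. Lamp1, an abundant lysosomal membrane glycoprotein, did so too (-0.57, adjusted p = 2.19e-07), while its difference from ntc was -0.05. In the direct test Flcn was also lower (-0.54 ± 0.083 SE, adjusted p = 0.000537), as was Mcoln1 (-0.46 ± 0.069 SE, adjusted p = 0.000446). Without the block, 100 genes differed, and the counts became 12 hydrolases, 4 cathepsins, 8 membrane genes and 1 V-ATPase subunit. Leaving out 1 library gave 218 to 303 genes, with 235 without T1, 254 without T3, and 218 and 242 without Mitf ASO replicates 1 and 2.

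Of the 72 genes that fell with the Tfe3 ASO, 23 were also lower than with the Mitf ASO, and none was higher. For 21 of these 23 the Mitf ASO value lay above ntc. These 23 were selected as lower than with the Mitf ASO, which favours such values. Among all 72, the Mitf ASO value lay above ntc in the same 21 only. The comparisons with ntc and with the Mitf ASO share the 4 Tfe3 ASO libraries, so their calls are not independent, and those of the 2 ASOs with ntc share the ntc libraries. Values are therefore given side by side. Renbp, an N-acylglucosamine epimerase, Uap1l1 and the ubiquitin ligase gene Rnf157 were chosen after their values were seen. Renbp was at 55.1, 42.7, 49.9 and 36.2 CPM with ntc, 41.9, 35.9, 30.8 and 28.1 CPM with the Tfe3 ASO and 77.8, 66.2, 64.1 and 48.02 CPM with the Mitf ASO. Its difference from ntc was -0.42 with the Tfe3 ASO and 0.48 with the Mitf ASO, and the direct difference was -0.90 ± 0.092 SE, adjusted p = 7.03e-06. Uap1l1 gave -0.42 and 0.60 against ntc (-1.02 ± 0.094 SE, adjusted p = 2.11e-06 directly), and Rnf157 -0.46 and 0.53 (-0.99 ± 0.10 SE, adjusted p = 1.03e-05 directly). Steap3 was at 8.76, 6.72, 5.76 and 7.21 CPM with the Mitf ASO, and its direct difference was -1.08 ± 0.13 SE, adjusted p = 6.05e-05. Rora (-0.70 ± 0.12 SE, adjusted p = 0.00135) and Ankrd28 (-0.93 ± 0.17 SE, adjusted p = 0.00258) also differed. Among the 150 genes that rose, 8 were lower than with the Mitf ASO, among them Ctsb (-0.42), Ftl1 (-0.61) and Lox (-1.08), and 6 were higher, among them Ccl9 (0.77), Itgae (1.02) and Fcgr4 (0.30). For the falls against ntc, calls were lost without 1 library, with the adjusted p then, for Renbp (any but T2 and N4, 0.0518 to 0.103), Uap1l1 (any but T2, N2 and N4, 0.0835 to 0.119) and Rnf157 (any but T2, N2 and N4, 0.0581 to 0.102).

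**Figure D4:**
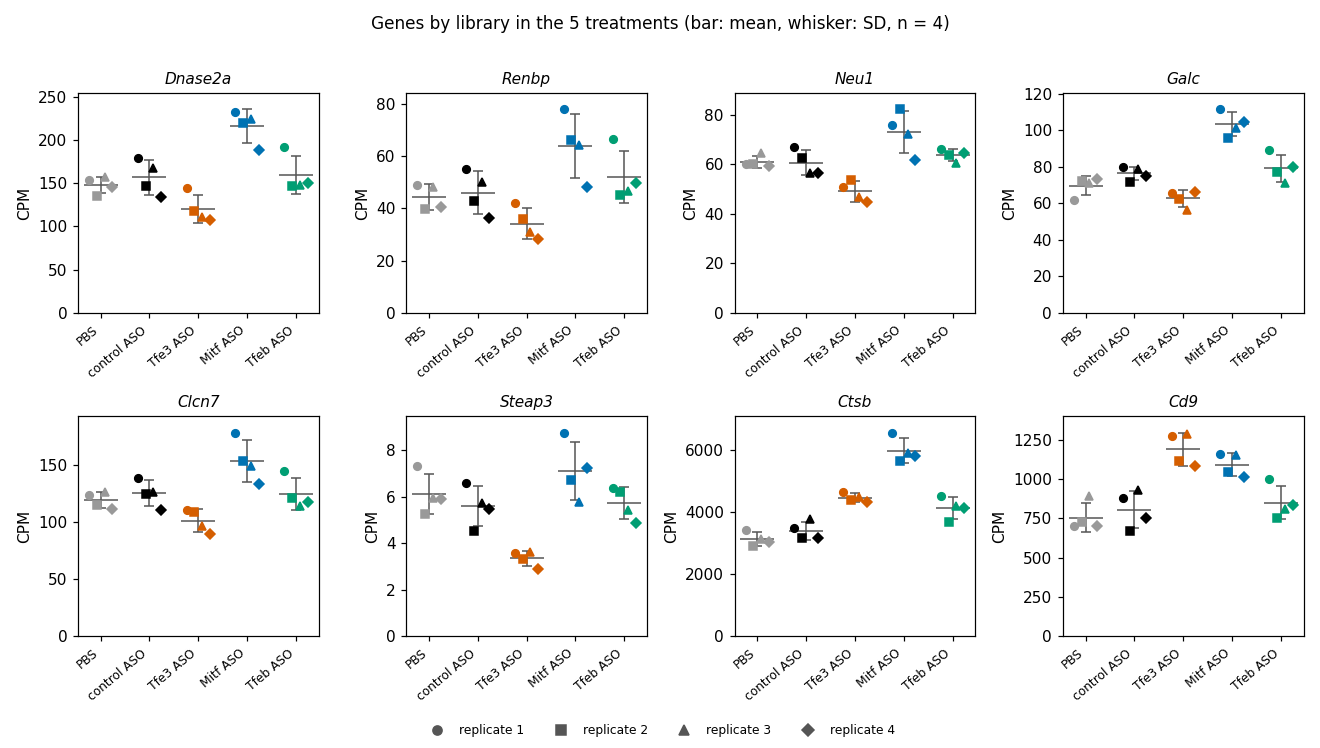
CPM of 8 genes in each wild-type library under 5 treatments, 4 libraries each, with the mean as a bar and the SD as a whisker. Dnase2a, Renbp, Neu1, Galc, Clcn7 and Steap3 have their lowest mean with the Tfe3 ASO and their highest with the Mitf ASO, while Ctsb and Cd9 are higher with either of these ASOs than with ntc.

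Among 31 measured genes of the disease-associated microglia list, 12 rose and 1 fell with the Tfe3 ASO. With the Mitf ASO, against the same ntc libraries, 23 rose and 1 fell (median 0.52), beside 5.77% and 5.21% of all genes. This list holds genes that microglia raise near tissue damage. Ferritin, cathepsins, a tetraspanin and the adaptor Tyrobp were among those that rose, and the median was 0.31, while 1.46% of all genes were called higher. By set, the median of the list was 0.42, 0.21, 0.053 and 0.39 in sets 1 to 4. The list was drawn up with earlier results of these data known and is no independent evidence of direction. Cd9, a tetraspanin (chromosome 6, 125460266 to 125494791), rose from 879, 667, 929 and 749.7 CPM to 1277, 1116, 1288 and 1084 CPM (0.57 ± 0.073 SE, adjusted p = 0.000272). Fth1, the ferritin heavy chain, rose from 958, 1016, 1014 and 922 CPM to 1468, 1443, 1489.6 and 1396 CPM (0.57 ± 0.056 SE, adjusted p = 2.48e-05). Both were higher in every Tfe3 ASO library than in any ntc library. Tyrobp, the adaptor of Trem2 signalling, rose from 586, 591, 572 and 454 CPM to 715, 721, 838 and 627 CPM (0.40 ± 0.064 SE, adjusted p = 0.00303), as did B2m, the light chain of MHC class I (1699 to 1893 CPM to 2098 to 2489.9 CPM, 0.34). Cadm1 (0.39), Timp2 (0.29), Ctsb, Ctsd, Cd68, Cst7, Lox and the chemokine Ccl3 (0.62) are the other members that rose. Postn, a matricellular protein, fell from 17.1, 17.6, 17.4 and 17.7 CPM to 14.7, 11.1, 10.5 and 13.5 CPM (-0.49 ± 0.088 SE, adjusted p = 0.00632).

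Several defining genes of that state did not pass the test. Trem2 was at 429.8 to 526 CPM with ntc and 463 to 638 CPM with the Tfe3 ASO (0.14, adjusted p = 0.222), Apoe at 34.3 to 146 and 37.8 to 57.5 CPM (-0.25, adjusted p = 0.776), Spp1 at 1.67 to 45.1 and 1.68 to 43.4 CPM, Lpl at 14.7 to 28.7 and 8.66 to 27.8 CPM, Itgax at 16.6 to 46.04 and 20.6 to 42.7 CPM, and Clec7a at 20.4 to 34.6 and 21.3 to 61.6 CPM. The groups overlapped in all 6 of these genes, and Spp1 spanned a similar range within either treatment. Ccl3 was at 49.04, 18.1, 16.3 and 17.4 CPM and 86.5, 30.2, 16.7 and 30.4 CPM, with N1 and T1 the highest of their groups. Compared directly, 7 members were lower and 1 (Ccl6) higher with the Tfe3 ASO than with the Mitf ASO, beside 2.63% and 1.13% of all genes. The lower ones were Lyz2 (-0.97), Lox, Cd63 (-0.70), Ctsz (-0.52), Ctsl (-0.48), Ctsb and Fth1 (-0.29). The calls of Cd9, Fth1, Tyrobp, B2m, Cadm1, Timp2 and Postn held without any single library, and 8 to 12 members were called higher in the 8 fits that each left out 1 (8 without N1, N2 or N4). Without the block, 5 rose and 1 fell. With the length trend removed, 9 rose, B2m was no longer called and Tyrobp was at 0.24. Calls lost without 1 library, with the adjusted p then, were Ccl3 (any but T3 and N3, 0.0575 to 0.0958), Lox (any but N3, 0.0503 to 0.105), Cst7 (T3, N1, N2 and N4, 0.0565 to 0.0828) and Cd68 (any but N3, 0.0653 to 0.11).

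Of 28 homeostatic microglial genes, which mark unstimulated microglia, 3 fell and 2 rose, beside 0.701% and 1.46% of all genes (median -0.089). With the Mitf ASO, against the same ntc libraries, 11 of the 28 fell and 1 rose (median -0.18), beside 5.21% and 5.77% of all genes. Compared directly, 2 were higher with the Tfe3 ASO than with the Mitf ASO and none was lower, beside 1.13% and 2.63% of all genes. Cx3cr1, the fractalkine receptor, fell from 10921, 11711, 9626 and 11765 CPM to 10107, 10086, 8411 and 10115 CPM (-0.18 ± 0.039 SE, adjusted p = 0.0193). Olfml3, a secreted glycoprotein, fell from 3262 to 3822 CPM to 2975 to 3158 CPM (-0.22), and Mertk, a receptor for apoptotic cells, from 860.2 to 1083 CPM to 768 to 934 CPM (-0.18). Cst3, the secreted protease inhibitor cystatin C, rose from 16256, 16818, 15032 and 13457 CPM to 19471, 18836, 21381 and 16719 CPM (0.31 ± 0.052 SE, adjusted p = 0.00403), and Fcrls from 4279 to 4692 CPM to 4953 to 5257 CPM (0.21). Cst3 held its call without any single library. The others lost theirs without 1, with the adjusted p then: Cx3cr1 (any but T1 and N3, 0.0543 to 0.0963), Olfml3 (any, 0.0589 to 0.17), Mertk (any but N2, 0.0754 to 0.11) and Fcrls (T3, T4, N1 and N3, 0.0506 to 0.0891).

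Of 26 glycolysis and hypoxia genes 4 rose, none fell and 22 were not called (median 0.078), beside 1.46% of all genes higher and 0.701% lower. With the Mitf ASO, against the same ntc libraries, 11 of the 26 rose and 1 fell (median 0.20). Over all genes that ASO raised 5.77% and lowered 5.21%. Pkm, pyruvate kinase (chromosome 9, 59656368 to 59679375), rose from 280.3, 258, 298 and 243 CPM to 380.1, 385, 432 and 367 CPM (0.54 ± 0.05 SE, adjusted p = 1.72e-05) with no overlap. Gapdh rose from 587 to 689 CPM to 769.7 to 846 CPM (0.32 ± 0.052 SE, adjusted p = 0.00342), Aldoa by 0.25 and Pgk1 by 0.25. Among 22 targets of the oxidative stress factor Nrf2, 6 rose and none fell with the Mitf ASO, and 3 rose with the Tfe3 ASO. Besides Fth1 these were Ftl1, the ferritin light chain (964, 920.1, 1008 and 792 CPM to 1152, 1155, 1365 and 1073 CPM, 0.37 ± 0.066 SE, adjusted p = 0.00632), and the peroxidase gene Prdx1 (0.31). Gapdh, Fth1 and Ftl1 have processed copies in the genome, and how the counting treated reads shared with them is not stated. The calls of Pkm, Gapdh, Fth1 and Ftl1 held without any single library, while Aldoa, Pgk1 and Prdx1 lost theirs without 1, with the adjusted p then: Aldoa (T3, T4, N2 and N4, 0.0569 to 0.0891), Pgk1 (any but T1, 0.0575 to 0.107) and Prdx1 (T3, T4, N1 and N4, 0.0589 to 0.0891).

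Of 14 complement genes and receptors 3 rose and none fell. As a background for this and the following lists, 1.46% of all genes rose and 0.701% fell. Itgb2, the beta chain of complement receptors (chromosome 10, 77530252 to 77565708), was at 753, 765, 791 and 743 CPM and 958, 993, 1011 and 972 CPM (0.37 ± 0.038 SE, adjusted p = 3.24e-05), a gap far wider than the spread within either group. Itgam, its alpha partner, rose by 0.19 and C1qc by 0.20. Of 18 Fc and scavenger receptors 2 rose and Mertk fell. Fcer1g, the signalling chain of Fc receptors, went from 561, 556, 538 and 524 CPM to 773, 694, 727 and 700.4 CPM (0.41 ± 0.048 SE, adjusted p = 0.000108), and Fcgr4 from 27.1, 24.5, 22.4 and 20.8 CPM to 39.4, 34.5, 29.9 and 25.9 CPM (0.44 ± 0.076 SE, adjusted p = 0.00478). Of 22 cytokines and chemokines 2 rose, Ccl9 (235, 160.5, 161 and 186 CPM to 339, 222, 243 and 229 CPM, 0.47 ± 0.083 SE, adjusted p = 0.00621) and Ccl3. Of 19 MHC genes B2m and H2-Oa (0.28) rose, and of 24 Toll-like receptor genes only Ly86 (0.24) was called. Without 1 library, calls were lost, with the adjusted p then, for Itgam (N1 and N2, 0.0528 to 0.0619), C1qc (any but T1, 0.0694 to 0.24), H2-Oa (any but T2 and N2, 0.0518 to 0.103) and Ly86 (T2, T3, N1 and N2, 0.0518 to 0.0881). The calls of Itgb2, Fcer1g, Fcgr4 and Ccl9 held.

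EdgeR called none of 29 interferon-response genes, while 8 had an unadjusted p under 0.05, beside 16.6% of all genes, and DESeq2 called 1 higher. Their median difference was 0.54 in set 1 and -0.032, 0.038 and -0.016 in sets 2 to 4. Oas1a, a sensor of double-stranded RNA, was at 4.58, 3.42, 3.95 and 4.14 CPM and 15.8, 5.63, 7.10 and 5.33 CPM (1.01 ± 0.29 SE, adjusted p = 0.075), with T1 the highest library, and this was the gene called by DESeq2 (adjusted p = 0.0089). In SgshKO mice given the Mitf and Tfe3 ASOs together, 22 of 35 measured interferon-response genes rose and none fell, with 5 higher in the first set alone and 12 in the second alone, beside 4.84% of all genes higher. Neither edgeR nor DESeq2 called any of 24 cholesterol synthesis, 19 lipid handling or 13 TGF-beta genes. Of these 2, 2 and 3 had an unadjusted p under 0.05, beside the same 16.6% of all genes. On the batch-corrected signal 1 lipid handling gene was called lower. Their smallest p-values belonged to Insig1 (-0.24, adjusted p = 0.204), Abcg1 (-0.14, adjusted p = 0.162) and Smad7 (-0.14, adjusted p = 0.17). Of 28 immediate-early and dissociation genes, Fosb and Btg2 (-0.24) fell. Of 24 Atf4 and unfolded protein response genes only the chaperone gene Calr rose (0.25), and of 14 cell division genes only the checkpoint kinase gene Bub1b (0.722 to 1.49 CPM to 1.75 to 2.78 CPM, 1.04). The calls were lost without 1 library, with the adjusted p then, for Btg2 (any but T1, N3 and N4, 0.0792 to 0.158), Calr (any but T2 and N4, 0.0532 to 0.17) and Bub1b (any, 0.0529 to 0.11).

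Ribosomal protein genes are given here with a trend over transcript length. All 76 measured cytosolic ribosomal protein genes had a positive difference, with a median of 0.24, but only 5 passed the test. These were Rps7 (0.34), Rps2 (0.31), Rps16 (0.31), Rpsa (0.29) and Rps4x (0.27), all of which have pseudogene copies. Of 71 respiratory chain genes only Sdha, a subunit of succinate dehydrogenase, rose (145 to 167 CPM to 178 to 184 CPM, 0.19), with a list median of 0.12. Over all genes, the median log2 fold change went from 0.089 in the decile with the shortest transcripts (up to 1437 bases) to -0.10 in the decile with the longest (6827 bases or more). The same medians went from 0.11 to -0.078 for the Mitf ASO against ntc and from 0.062 to -0.033 for ntc against PBS. In set 3 it went from 0.22 to -0.25, against 0.032 to -0.028, 0.0029 to -0.066 and 0.13 to -0.076 in sets 1, 2 and 4. The median longest transcript was 2474.5 bases in genes called higher and 4630.5 in genes called lower, against 3465 in all genes. The median of the ribosomal list was 0.21, 0.030, 0.46 and 0.28 in sets 1 to 4, and 0.16 without T3. After the length trend was removed, 189 genes were called, 133 higher and 56 lower, 168 of them among the 222, and the ribosomal median was 0.15. Called genes that moved by over 1.5 times included Fcer1g (0.27), Cst3 (0.20), C1qc (0.12) and Rps4x (0.17). Whether the trend reflects RNA quality was not tested. Calls were lost without 1 library, with the adjusted p then, for Rps7 (any but T2, 0.065 to 0.228), Rps2 (T3, T4, N1 and N4, 0.0526 to 0.0891), Rps16 (any but T2, 0.0626 to 0.19), Rpsa (any but T2, 0.0501 to 0.187), Rps4x (any, 0.0565 to 0.184) and Sdha (any but T2, 0.0552 to 0.102).

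**Figure D5:**
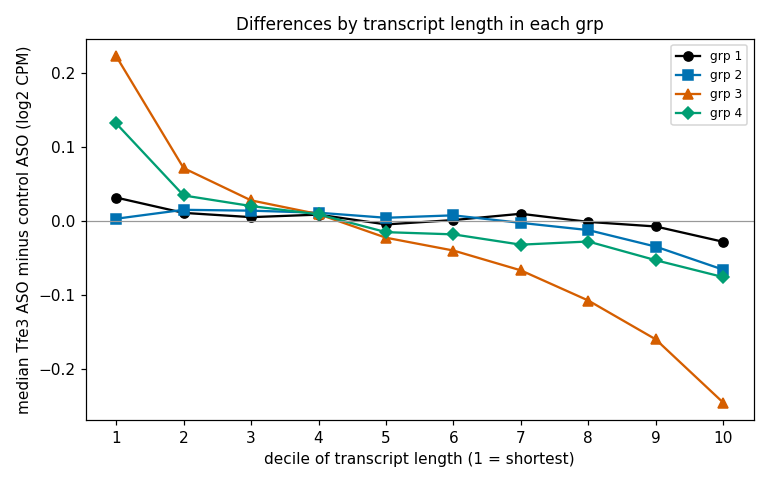
Median log2 CPM difference between the Tfe3 ASO and control ASO library of each set (grp), by decile of transcript length from shortest to longest. Set 3 falls from 0.22 to -0.25, and the other 3 sets vary within a narrower band.

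PBS-treated mice gave a second reference, which shares the Tfe3 ASO libraries with the first. Against PBS, 1001 genes were called (9.74%), 578 higher (5.62%) and 423 lower (4.12%), and 422 without T3. The control ASO against PBS gave 0 calls by edgeR (0%) and 415 genes at an unadjusted p under 0.05 (4.04%). Genes that led the comparison with ntc were also called here. Gpr162 differed from PBS by 2.03, Itgb2 by 0.43, Cd9 by 0.66, Pkm by 0.65, Ctsd by 0.48, Dnase2a by -0.31 and Steap3 by -0.86, each called. Ribosomal protein genes were called in 75 of 76 against PBS (median 0.42), in 41 without T3 and in 4 without the block. Galc (-0.16, adjusted p = 0.174) and Impact (-0.30, adjusted p = 0.248) were not called against PBS.

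Against the Tfeb ASO, 167 genes differed (1.62%), 57 higher (0.555%) and 110 lower (1.07%) with the Tfe3 ASO. Of the 222 genes, 29 that rose were also higher than with the Tfeb ASO, and 27 that fell were also lower. Both comparisons use the same 4 Tfe3 ASO libraries, so these counts are no independent support. Gpr162 (1.23), Cd9 (0.49), Ly9 (0.58), Npnt (0.75), Ccl9 (0.55) and Itgb2 (0.21) were among the first. Dnase2a (-0.40), Neu1 (-0.38), Steap3 (-0.77) and Rora (-0.59) were among the second. Hydrolases were lower in 8 of 36 and higher in none. Disease-associated genes were higher in 7 of 31 (Cd9, Ccl3, Ccl4, Ank, Cadm1, Timp2 and Ctsd) and lower in 1 (Postn). This comparison rested on single libraries, with 568 genes without Tfeb ASO replicate 1 and 48 without Tfeb ASO replicate 2. Between these lay 78, 66, 59 and 69 genes without T1 to T4, and 59 and 77 without Tfeb ASO replicates 3 and 4. The Tfeb ASO itself changed 80 genes against ntc (0.778%), 58 higher (0.564%) and 22 lower (0.214%). The direct comparison gave 7 genes without the block, with 0 hydrolases and 0 disease-associated genes higher. In the fits without 1 library, 2 to 6 hydrolases were lower and 2 to 10 disease-associated genes higher.

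SgshKO microglia treated with the Mitf and Tfe3 ASOs together share no library with the wild-type comparison. There Tfe3 was at 137 to 194 CPM with ntc and 75.04 to 87.1 CPM with the combination, and Mitf at 60.7 to 82.1 and 7.51 to 23.2 CPM, log2 changes of -1.08 and -2.26. The Tfe3 change beside that of the single ASO in wild type was not tested. Of 10589 genes 988 were called (9.33%), 512 higher (4.84%) and 476 lower (4.50%). Of the 222 wild-type genes 218 were measured there, 71 were called and 57 had the same direction, which is 25.7% of the 222 and 5.77% of the 988. Of the 148 measured genes that rose in wild type, 40 rose and 12 fell in SgshKO. Of the 70 that fell, 17 fell and 2 rose. Clcn7 (-0.31), Galc (-0.25), Ddx6 (-0.36), Ankrd28 (-0.33) and Impact (-0.32) fell in both. Gm2a (0.44), Cst3 (0.68), Ctss (0.47), B2m (0.35) and Itgb2 (0.18) rose in both. Dnase2a (0.0016, adjusted p = 0.989) and Steap3 (-0.089, adjusted p = 0.677) were not called in SgshKO.

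Of the disease-associated list in SgshKO, 18 of 37 measured genes fell and 6 rose (median -0.22), beside 4.5% and 4.84% of all genes. Gpr162 was 1.67 in wild type and -0.67 in SgshKO, where its ntc level was higher, at 59.6 to 92.3 CPM against 4.56 to 8.89 CPM. Cst7 gave 1.17 and -0.38, with ntc at 98.2 to 123 CPM in SgshKO. Cd9 gave 0.57 and -0.22, Cadm1 0.39 and -0.21, Cd68 0.22 and -0.31, and Rftn1 0.70 and -0.32. Not every list member changed in that way. Tyrobp rose in both (0.40 and 0.28), as did B2m, and Postn gave -0.49 and 0.67. Each of these changes passed the test in its own table, and the difference between the tables was not tested, since genotype, ASO and normalization change together. In SgshKO the list gave 4 falls in the first set alone and 14 in the second alone.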

How the data were processed

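The deposited tables hold raw gene counts of single-end polyA RNA-seq libraries, and a second deposited table holds the authors' batch-corrected signal, used only as an alternative. Per the submitters' processing notes, STAR 2.5.3a, kallisto 0.44.0, HOMER 4.11, DESeq2 1.36.0 and R 4.2.3 were used with mm10. Their roles, and the tool that counted reads, are not given in the sources used here. Counts were fitted here with edgeR 4.0.16 and limma 3.58.1 in R 4.3.3: trimmed mean normalization, a low-count filter with a minimum of 10 (it removed no gene), and a quasi-likelihood test over all 20 wild-type libraries with treatment and set number as terms. A gene was called at a Benjamini-Hochberg adjusted p under 0.05. Contrasts of the Tfe3 ASO with ntc, PBS, the Mitf ASO and the Tfeb ASO came from this fit. The 16 SgshKO libraries were fitted separately with their set as a term. CPM are counts scaled to normalized library size and carry no length correction.

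The set number was the block named when the comparison was defined. As a check in the same libraries, deviations from group means correlated in every same-numbered Tfe3 ASO and ntc pair (r = 0.181 to 0.465). Pairs with different numbers gave -0.36 to 0.11. Each group was centred on its own mean, so a positive value for the same number pushes the others down. The second range is therefore no separate support for the pairing. Over all treatments the range for the same number was -0.088 to 0.592. PBS library 4 has set 4 in its title and set 3 in its column name, and correlated with set 4 at a mean r of 0.399 and with set 3 at 0.177. It was fitted in set 4. Libraries held 14372015 to 30378870 counts in wild type, and 12517838 to 30431437 in SgshKO.

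The comparison and the gene lists were chosen with earlier results of these data known. Genes named by rule were the 12 lowest and 12 highest by fold change among called genes with a mean of at least 50 counts and the same sign in all 4 pairs, up to 4 largest called genes of each list (or its smallest p), and Tfe3, Mitf and Tfeb. Further list members (among them Galc, Man2b1, Mcoln1, Flcn, Lamp1, Postn, Tyrobp, Cadm1, Timp2, Trem2, Apoe and Rps4x) were named after their values were seen, and some list members are not reported here. Alternatives were DESeq2 1.42.0, other normalizations and filters, the signal with pseudocounts of 1 and 10, no block, and each library left out. The pipeline was tested on simulated data for the Tfe3 ASO and ntc comparison of 10277 genes. It recovered 72.3% of 65 genes changed by a log2 value of 0.5 and 97.2% of 71 changed by 1. The share of false calls there was 5.26%. Recovery of changes under 0.5 was not tested. Genes called in the measured Tfe3 ASO and ntc libraries had a median absolute log2 fold change of 0.307.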

Additional observations from a re-analysis of the deposited data

Results flagged for a closer look

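In 14 of 178 groups of 4 libraries examined, 1 library stood apart from the other 3 by a gap over 0.829 of the group's whole range, Dixon's 95% critical value. Chance alone gives about 1 in 20 such groups. Among the decreases, Fosb was 22.6 CPM in N1 and 3.23 to 5.27 CPM in N2 to N4, and Nr1d1 was 15.6 CPM in N2 and 28.1 to 30.6 CPM in the other 3. Among the increases, Lox was 13.05 CPM in T1 against 6.89 to 7.86, Kcnj10 39.6 CPM in T2 against 31.3 to 32.2, Cst7 24.1 CPM in N3 against 7.25 to 9.22, and Olfr110 3.33 CPM in N1 against 1.15 to 1.47. Microglial genes included Olfml3 at 3158 CPM in T1 against 2975 to 2999.9, Cx3cr1 at 8411 CPM in T3 against 10086 to 10115, and the immune genes Ly86 at 836 CPM in N1 against 757 to 764 and Ccl3 at 49.0 CPM in N1 against 16.3 to 18.1. Calr was 1212 CPM in N3 against 1416 to 1455, Rps7 115 CPM in T4 against 158 to 163, Oas1a 15.8 CPM in T1 against 5.33 to 7.10, and the Y-linked gene Uty 22.6 CPM in T3 against 27.1 to 27.4.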

How the results depend on the processing

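For the Tfe3 ASO against ntc, the main design gave 222 genes, 150 higher and 72 lower. Without the replicate block (the set number) it gave 29, 25 and 4, with all 29 among the 222. DESeq2 gave 403, 274 and 129, and the authors' signal with a pseudocount of 1 gave 112 lower. Leaving out 1 library gave 79 to 140 genes, 62 to 99 higher and 17 to 45 lower, each fit having 1 sample fewer. The other alternatives gave 185 to 309 genes. These included cyclic loess (245) and removal of the length trend (189), both chosen after seeing the data. Against PBS, no block gave 114 genes and leaving out 1 library 422 to 1231. Against the Mitf ASO these were 100 and 218 to 303, and against the Tfeb ASO 7 and 48 to 568, with 415 by DESeq2. The SgshKO comparison gave 192 genes in the first set alone, 430 in the second alone and 1011 with the replicate number as a further block. Of 105 genes followed, the block's removal ended the call of 64. Reversals of sign were in genes that were not called. Stab1 was -0.0020 and became 0.0014 without the block, 0.0073 with RLE factors, 0.0072 by DESeq2, 0.0065 with a mean of 50 counts, 0.026 with the signal at either pseudocount and 0.095 without the length trend, with -0.050 to 0.059 when 1 library was left out. Ddx3y became 0.010 without the length trend. Leaving out 1 library gave -0.072 to 0.042 for Ddx3y, -0.75 to 0.051 for Slc1a2, -0.35 to 0.13 for Ccr2, -0.011 to 0.094 for Mitf, -0.14 to 0.0026 for Pecam1 and -0.021 to 0.12 for Csf3r. Counting depth was 16554404 or more in each of the 8 libraries, and 4 libraries a group limit the differences that can be called.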
